A study of Mus musculus with 8 samples.

Results

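Mitochondrial DNA encodes 13 protein subunits of the respiratory chain complexes and of ATP synthase, and a count table names them with the prefix mt-. They are made by transcribing both strands of the circular genome into long precursors, from which the separate RNAs are cut, and their proteins are made on mitochondrial ribosomes. Lars2 is a nuclear gene whose protein, the mitochondrial leucyl-tRNA synthetase, loads leucine onto the mitochondrial leucine tRNAs that this translation uses. The genes were chosen by name, as every row with the prefix mt- together with Lars2. They were 14 of the 35199 genes listed, 13 of them mt- genes, and all 14 had counts in every library and passed the filter on low counts. The mitochondrial ribosomal and transfer RNAs were not analysed here.

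The data are bulk RNA sequencing of sorted tuft cells, rare chemosensory cells of the gut epithelium. The cells came from the jejunum of Dclk1-DTR-ZSgreen mice, which carry a transgene on a bacterial artificial chromosome with the regulatory region of Dclk1, so that ZSgreen and the diphtheria toxin receptor are made in cells that use this region. Mice aged 8 to 10 weeks received scopolamine, a nonselective blocker of muscarinic acetylcholine receptors, at 0.5 mg per kg per day from an implanted osmotic pump (4 mice), or sodium chloride as sham treatment (4 mice), for 7 days. Live cells with high EpCAM, an epithelial surface protein, and with ZSgreen were sorted, and each library came from 3000 cells (scopolamine 1 and sham 1) or 4000 cells (the other 6). In bulk samples, fewer cells of a type and less RNA per cell cannot be told apart.

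The libraries were not made alike. Sham 1 and sham 3 were made from 200 pg of RNA with 15 cycles of cDNA amplification, and the other 6 libraries from 1000 pg with 10 cycles, so low input occurs in sham only. The mouse IDs fall into 2 series, with scopolamine 1 to 3 and sham 1 in one and scopolamine 4 and sham 2 to 4 in the other, so that series and treatment largely coincide. Total counts were 20327680, 20244608, 14343362 and 20857433 in scopolamine 1 to 4, and 25769940, 40426059, 41428916 and 35391538 in sham 1 to 4. The lowest sham total lay above the highest scopolamine total, and depth and treatment cannot be told apart. Levels are in CPM, which is counts scaled to a common library total with edgeR's TMM factors.

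The sort was checked against tuft cell genes. Dclk1, the kinase gene whose regulatory region drives the reporter, was measured at 4488, 3439, 5734 and 3805 CPM in scopolamine 1 to 4 and at 5725, 4644, 5050 and 4092 CPM in sham 1 to 4. The taste-pathway channel gene Trpm5 averaged 1370 ± 326 CPM under scopolamine and 1360 ± 221 CPM under sham (SD, n = 4 each). The tuft lineage transcription factor gene Pou2f3 averaged 330.2 ± 100.02 CPM and 422 ± 139 CPM (SD, n = 4 each). All 3 were present in every library.

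Lars2 held more counts than any other gene in each of the 8 libraries. It took 8.63%, 7.08%, 8.33% and 9.48% of all counts in scopolamine 1 to 4, and 2.85%, 6.51%, 3.44% and 8.38% in sham 1 to 4. The 2 lowest values belonged to sham 1 and sham 3, the libraries from 200 pg, while sham 4 lay inside the scopolamine range, so the groups overlapped. Counting error was small against this spread, with a 95% Wilson interval of 2.848% to 2.861% for sham 1 and of 9.467% to 9.492% for scopolamine 4. These intervals cover counting error only, since reads amplified without molecular identifiers are not independent molecules.

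The mean share of Lars2 was 8.38% ± 0.992 under scopolamine and 5.29% ± 2.61 under sham (SD, n = 4 each), and the difference of 3.09 percentage points did not pass an exact permutation test (two-sided, 70 assignments, p = 0.0857). Among the libraries from 1000 pg alone, sham 2 and sham 4 averaged 7.44%, a difference of 0.938 percentage points from scopolamine (exact permutation test, two-sided, p = 0.4, where 4 against 2 cannot go below 0.0667). Sham 4 was the only sham library inside the scopolamine range. Leaving it out gave a difference of 4.12 percentage points (exact permutation test, p = 0.0286, the smallest p possible with the remaining libraries). Within sham, the libraries from 200 pg averaged 3.15%, below the range of 6.51% to 9.48% of the 6 libraries from 1000 pg. A permutation of 2 libraries against 2 cannot reach a small p, so the shares were not tested; a model of the counts is given further on.

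**Figure D1:**
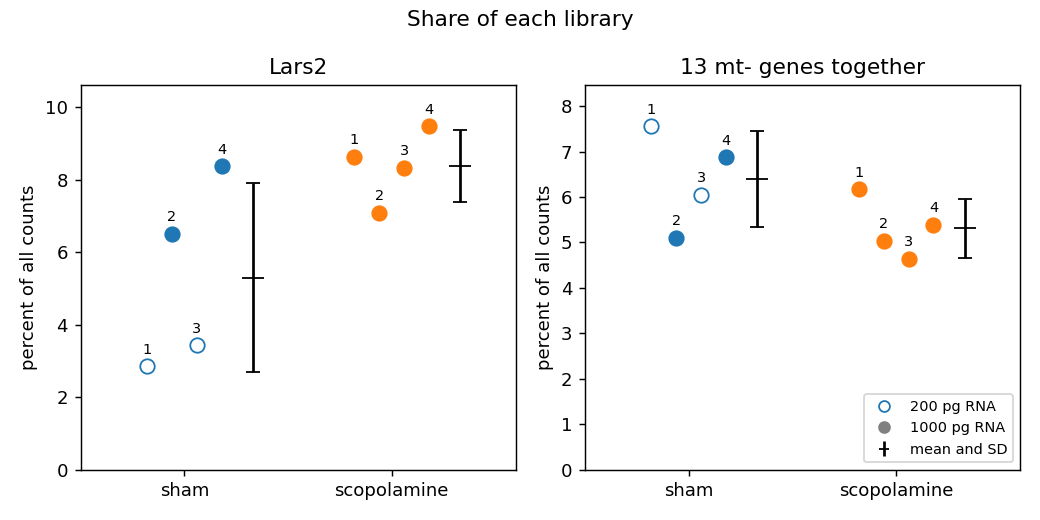
Percent of all counts taken by Lars2 (left) and by the 13 mt- genes together (right), vertical axis in percent, with 1 numbered point per library, open points for libraries from 200 pg of RNA, and the mean and SD of 4 libraries as a bar. For Lars2 the open points lie at 2.85% and 3.44%, below all filled points; for the mt- genes the groups overlap.

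In CPM, Lars2 was measured at 87986, 67254, 84449 and 93628 in scopolamine 1 to 4 and at 27894, 64085, 35308 and 88569 in sham 1 to 4. The log2 fold change of scopolamine against sham was 0.63 (standard error 0.32), and it was not called by edgeR's quasi-likelihood test (Benjamini-Hochberg adjusted p = 0.812). It was 0.10 (standard error 0.24) without the 2 libraries from 200 pg and 0.13 (standard error 0.23) with amplification cycles as a covariate. It was 0.39 without sham 1, 0.97 without sham 4 and 1.05 with the mouse ID series as a covariate.

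In the fit that holds both treatment and amplification cycles, the coefficient for the 200 pg libraries was chosen for reading after the data were seen. Since low input occurs in sham only, this coefficient compares sham 1 and sham 3 with sham 2 and sham 4. The scopolamine libraries add to the estimate of spread but not to this difference. For Lars2 it was -1.27 on the log2 scale (standard error 0.27), with an unadjusted p of 0.00105 and an adjusted p of 0.308 by edgeR, so it was not called. The p was the 40th smallest of 12849 genes; 5 genes (0.0389%) had an adjusted p under 0.1, and 496 (3.86%) had an unadjusted p under 0.05 with a lower level in the 200 pg libraries. The 5 genes, named after their values were seen, were Agbl5, Ahnak2, Gm10163, Gm10240 and Gm13370. Agbl5 was near 0 CPM in both 200 pg libraries, whereas the other 4 had their lowest levels in sham 2 and sham 4. None of the 13 mt- genes had an unadjusted p under 0.05 for this coefficient, and their median was 0.09, beside 0.01 over all genes tested. For markers of other cell types, described below, the median coefficient was 2.13 (enterocyte), 2.45 (goblet and Paneth), 5.31 (enteroendocrine) and 6.29 (lymphocyte). It was 0.39 for stem and cycling markers and 0.12 for tuft markers. For the 2 stromal markers tested, Vim and Col1a1, it was -3.355, and both were at most at 1.64 CPM in any sham library. The 2 libraries from 200 pg differed in these markers. Enterocyte and lymphocyte markers summed to 6303 and 254 CPM in sham 1 and to 2598 and 79.2 CPM in sham 3. Enteroendocrine markers summed to 271 CPM in sham 1 and 1071 CPM in sham 3, and goblet and Paneth markers to 1399 and 1199 CPM. The part of these cells in the coefficient of Lars2 was not tested.

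Per length of annotated transcript, Lars2 stood far from the other genes of mitochondrial tRNA loading. It averaged 21399 ± 2918 CPM per kilobase under scopolamine and 13858 ± 7153 CPM per kilobase under sham (SD, n = 4 each). The other 21 genes of the list, nuclear genes that load mitochondrial tRNAs or, as Gatb, Gatc and Qrsl1 do, convert a loaded tRNA, had a median over the 8 libraries of 6.3 CPM per kilobase. The highest of them, Kars, which loads lysine in both cytosol and mitochondria, averaged 30.02 CPM per kilobase; the value of Lars2 was 587 times this. By group means, only mt-Co3 of the 13 mt- genes reached the level of Lars2. It averaged 19319 ± 3020 CPM per kilobase under scopolamine and 23482 ± 3418 under sham (SD, n = 4 each), below the mean of Lars2 in the first group and above it in the second. Single libraries differed. In sham 1, Lars2 was at 7163 CPM per kilobase, below mt-Co2 (12035), mt-Atp6 (10283), mt-Cytb (10165) and mt-Co1 (9441) as well. In sham 3, Lars2 was at 9067 CPM per kilobase, below mt-Co2 at 9844.5.

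The 13 mt- genes together took 6.17%, 5.04%, 4.64% and 5.39% of all counts in scopolamine 1 to 4 and 7.56%, 5.11%, 6.05% and 6.88% in sham 1 to 4. The highest share was in sham 1 and the lowest in scopolamine 3, and the groups overlapped. The means were 5.31% ± 0.650 under scopolamine and 6.40% ± 1.06 under sham (SD, n = 4 each), a difference of -1.09 percentage points, which is close to 1 SD of the sham libraries. Without the libraries from 200 pg the difference was -0.682 percentage points.

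No mt- gene was called between the groups, nor was any other gene: edgeR gave an adjusted p under 0.1 for 0 of 12849 genes (0%), with 770 at an unadjusted p under 0.05, and DESeq2 for 190 genes, none of them an mt- gene, with 1531 at an unadjusted p under 0.05, 5 of them mt- genes. All 13 mt- genes had a log2 fold change under 0, as had 50.9% of all genes tested, and their median was -0.35 beside -0.01 over all genes tested. At an unadjusted p under 0.05, 4 of the 13 were lower with scopolamine and 0 higher, where 2.66% of all genes tested were lower and 3.33% higher. None of the 13 had groups that did not overlap in CPM, which 3.88% of all genes tested had. These are counts over genes that share the same libraries and moved together across them, and no test was made over the list.

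The count of 4 rested on single libraries. It was 0 without the 2 libraries from 200 pg and 0 with amplification cycles as a covariate, both of which had larger standard errors. Without the 200 pg libraries the log2 fold changes of the 4 genes were -0.43 for mt-Nd5, -0.78 for mt-Nd6, -0.29 for mt-Cytb and -0.40 for mt-Co2, so the size of the differences did not vanish with the calls. The count was 9 without scopolamine 1 and 8 without sham 2, and 2 without scopolamine 3. It was 1 without scopolamine 2, without scopolamine 4, without sham 1 or without sham 4, and again 4 without sham 3. The genes past an adjusted p of 0.1 numbered 9 without the libraries from 200 pg, 5 with cycles as a covariate, 2 without sham 1 and 1 without scopolamine 4, and 0 without any of the other 6 libraries. Without the 200 pg libraries, the log2 fold changes of all 13 stayed under 0.

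Complex I, which takes electrons from NADH, has 7 mt- subunits, and 2 of them had an unadjusted p under 0.05. The first, mt-Nd5, was measured at 1804, 1413, 1542 and 1517 CPM in scopolamine 1 to 4 and at 2343, 1721, 2051 and 2414 CPM in sham 1 to 4. Only scopolamine 1 reached into the sham range. The log2 fold change was -0.44 (standard error 0.15, edgeR adjusted p = 0.812), and its share of all counts gave p = 0.0571 in an exact permutation test.

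The second, mt-Nd6, is the only mt- gene encoded on the other strand, and was measured at 366 CPM, 236 CPM, 132 CPM and 194 CPM in scopolamine 1 to 4 and at 396 CPM, 266 CPM, 309.9 CPM and 512 CPM in sham 1 to 4. Its range in scopolamine was wider than its range in sham by ratio, and scopolamine 1 lay inside the sham values. The log2 fold change was -0.68 (standard error 0.30, edgeR adjusted p = 0.812), the lowest of the 13, and its share of all counts gave p = 0.114 in an exact permutation test. The other 5 complex I genes had log2 fold changes of -0.35 for mt-Nd1, -0.34 for mt-Nd2, -0.31 for mt-Nd3, -0.37 for mt-Nd4 and -0.47 for mt-Nd4l. None of these 5 was under an unadjusted p of 0.05. Single libraries moved 2 of them: mt-Nd3 was at -0.52 without scopolamine 1, -0.13 without scopolamine 3 and -0.18 without sham 4, and mt-Nd4l at -0.75, -0.26 and -0.30 without the same libraries. With the mouse ID series as a covariate they were at -0.49 and -0.77.

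Complex III, which passes electrons to cytochrome c, has a single mt- subunit, mt-Cytb. It was measured at 8736, 7238, 7521 and 7836 CPM in scopolamine 1 to 4 and at 11629, 7817, 10157 and 10893 CPM in sham 1 to 4. Sham 2 lay inside the scopolamine range and the other 3 sham libraries above it. The log2 fold change was -0.37 (standard error 0.15, edgeR adjusted p = 0.812), and the share of all counts gave p = 0.0571 in an exact permutation test.

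Complex IV, which reduces oxygen, has 3 mt- subunits. The copper-binding subunit mt-Co2 was measured at 6216, 5081, 4167 and 5236 CPM in scopolamine 1 to 4 and at 8232, 5189, 6734 and 8211 CPM in sham 1 to 4. Sham 2 again lay among the scopolamine libraries, and the log2 fold change was -0.45 (standard error 0.18, edgeR adjusted p = 0.812), with p = 0.114 for its share in an exact permutation test. The catalytic subunit mt-Co1 was measured at 12353, 9253, 11128 and 12278 CPM in scopolamine 1 to 4 and at 14587, 9694, 11486 and 12562 CPM in sham 1 to 4. Only sham 1 and sham 4 lay above the highest scopolamine library, and the groups overlapped. Its log2 fold change, -0.10 (standard error 0.16, edgeR adjusted p = 0.948), was the closest to 0 of the 13, and it was 0.02 with amplification cycles as a covariate. It was -0.03 without scopolamine 2, -0.16 without scopolamine 4, -0.01 without sham 1 and -0.20 without sham 2. For mt-Co3, the log2 fold change was -0.28 (standard error 0.16, edgeR adjusted p = 0.821).

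ATP synthase, counted as complex V, has 2 mt- subunits, whose genes overlap on the genome and share 13 words of 31 bases. The proton channel subunit mt-Atp6 averaged 4870 ± 1303 CPM under scopolamine and 6014 ± 1473 CPM under sham (SD, n = 4 each). Its log2 fold change was -0.30 (standard error 0.23). The short mt-Atp8 was measured at 607 CPM, 404 CPM, 184 CPM and 219 CPM in scopolamine 1 to 4 and at 459 CPM, 344 CPM, 309.5 CPM and 616 CPM in sham 1 to 4, and its log2 fold change was -0.29 (standard error 0.36). For both genes the groups overlapped and the standard error was close to or above the size of the difference. The log2 fold change of mt-Atp6 was -0.50 without scopolamine 1 and -0.20 without sham 4. That of mt-Atp8 was -0.69 without scopolamine 1, -0.08 without scopolamine 3, -0.13 without scopolamine 4 and -0.07 without sham 4. It was -0.58 with the mouse ID series as a covariate, -0.47 without the 200 pg libraries and -0.44 with cycles as a covariate.

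**Figure D2:**
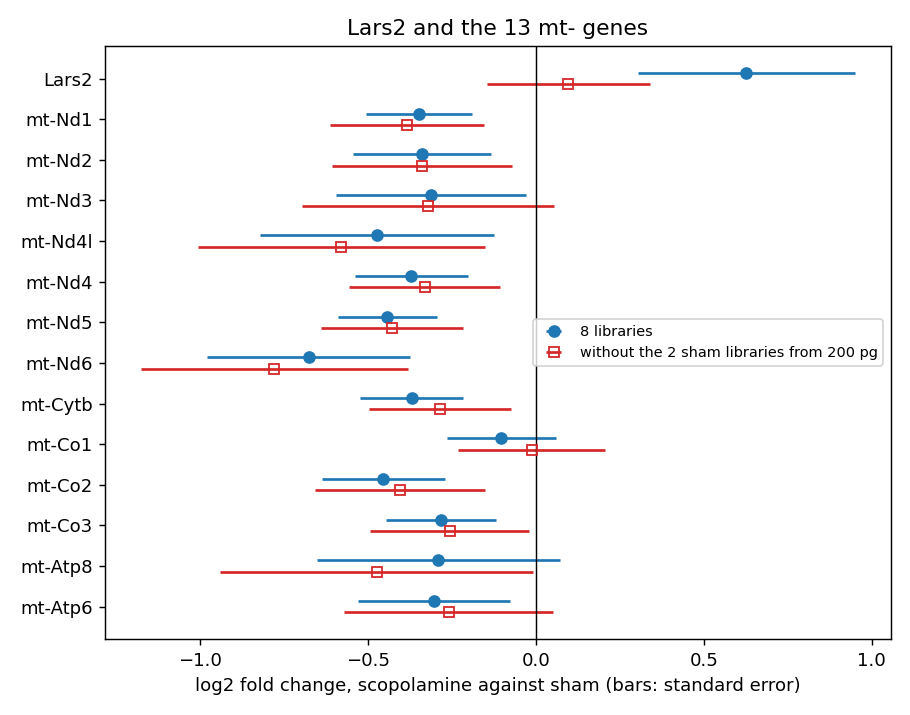
Log2 fold change of scopolamine against sham (horizontal axis) for Lars2 and each mt- gene, grouped by complex, from edgeR with all 8 libraries (filled circles) and without the 2 sham libraries from 200 pg (open squares); bars are standard errors. The value of Lars2 goes from 0.63 to 0.10, while the mt- values lie between -0.68 and -0.10 with 8 libraries.

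The mt- genes differed in how they varied among the libraries. The 4 with transcripts under 600 bases, mt-Atp8, mt-Nd3, mt-Nd4l and mt-Nd6, were examined together after their values were seen. They had 2.14, 1.99, 0.956 and 1.10 counts per 100 counts of the other 9 in scopolamine 1 to 4, and 1.69, 1.71, 1.39 and 2.16 in sham 1 to 4. Scopolamine 3 and scopolamine 4 were the lowest of the 8 libraries, and the highest was 2.26 times the lowest. The group means were 1.55 ± 0.605 under scopolamine and 1.74 ± 0.320 under sham (SD, n = 4 each), which overlapped. The cause of the low values in the 2 libraries was not tested; scopolamine 3 had the lowest total count and scopolamine 4 the highest of its group.

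Across the 8 libraries the mt- genes moved together. All 78 pairs of mt- genes had a positive Pearson correlation of log2 CPM, with a median r of 0.86. The highest r was 0.98, for mt-Co2 with mt-Co3, and the lowest was 0.25, for mt-Atp8 with mt-Co1. These values are a description, since all points come from the same 8 libraries. Per length, and with only the counts listed for the mt- genes themselves, mt-Co3 had the highest mean over the 8 libraries, at 21400 CPM per kilobase. Below it lay mt-Co2 at 8966, mt-Atp6 at 7991, mt-Cytb at 7848 and mt-Co1 at 7552 CPM per kilobase, and the order of the last 3 differed between the groups. The value for mt-Nd3 was 259 CPM per kilobase. This order does not hold when nuclear copies, described below, are counted with their mt- genes: mt-Co1 and mt-Atp6 then lie above mt-Co2, and mt-Nd3, which is otherwise the lowest, above mt-Nd5.

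No correlation of Lars2 with an mt- gene was called, and the sign of most differed between all 8 libraries and the 6 from 1000 pg. Over 8 libraries Pearson's r of Lars2 with the mt- genes was under 0 for 13 of 13, as it was for 48.9% of the 12848 other genes tested, with a median of -0.32 beside 0.01 over all genes. The strongest was mt-Cytb, with r = -0.59 (exact permutation test over 40320 pairings, p = 0.122, Benjamini-Hochberg adjusted over all genes 0.814) and Spearman's rho = -0.19 (exact permutation p = 0.665). The weakest was mt-Atp8, with r = -0.10 (exact permutation p = 0.815, adjusted 0.984) and rho = 0.02 (exact permutation p = 0.977). No mt- gene had an unadjusted p under 0.05, and over all genes 866 had, with 0 at an adjusted p under 0.1.

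The 2 libraries farthest from the median of Lars2 were sham 1 and sham 3, the same 2 that were made from 200 pg. Without them, r was above 0 for 11 of the 13 mt- genes, as it was for 47% of the other genes, with a median of 0.31 beside -0.03 over all genes. For mt-Co1 r was -0.30 over 8 libraries (exact permutation p = 0.477, rho = 0.10 with exact permutation p = 0.840) and 0.95 over these 6 (exact permutation test over 720 pairings, p = 0.0153, adjusted 1). For mt-Cytb it was 0.47 over the 6 libraries (exact permutation p = 0.381, adjusted 1). Of the 2 libraries, sham 1 mattered more: without sham 1 alone, r was under 0 for 7 of the 13, with -0.28 for mt-Cytb and 0.31 for mt-Co1. Without sham 3 alone it was under 0 for all 13, with -0.53 for mt-Cytb and -0.36 for mt-Co1. The 2 libraries cannot give a value of their own. Leaving out sham 4 alone gave r = -0.86 for mt-Cytb. With both group means subtracted, r was under 0 for 7 of the 13.

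**Figure D3:**
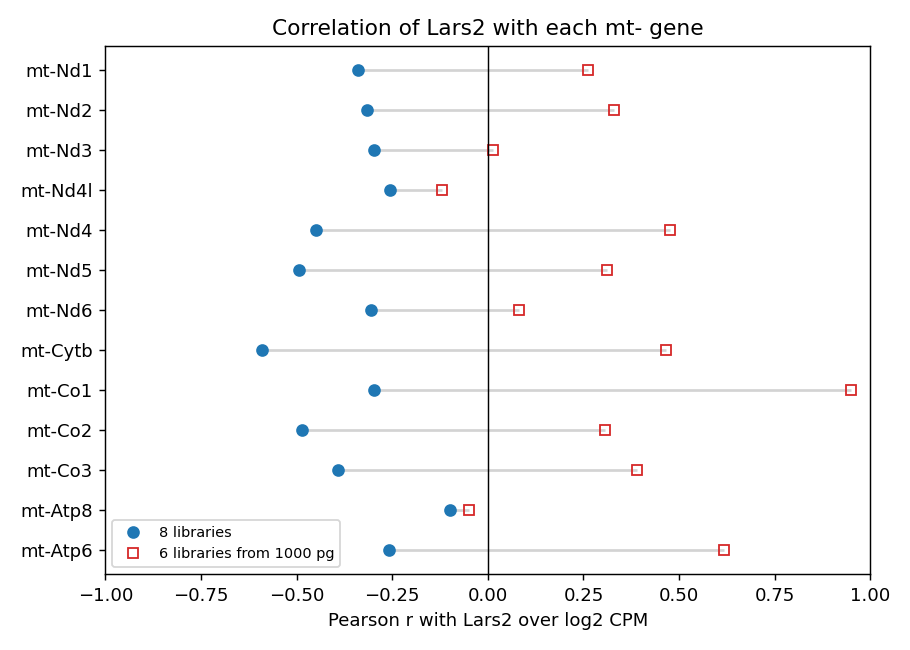
Pearson's r of log2 CPM of Lars2 with each mt- gene (horizontal axis), over all 8 libraries (filled circles) and over the 6 libraries from 1000 pg (open squares). All 13 circles lie left of 0 and 11 of the 13 squares lie right of it.

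The 10 genes with the highest r with Lars2 over 8 libraries were Wls, Hemk1, Lipt1, Il16, Ypel1, Gm19220, Zdhhc3, Extl2, Chrna10 and Larp1. None is an mt- gene. For Wls, which carries Wnt proteins to the cell surface, r was 0.99 (exact permutation p = 2.48e-04, adjusted 0.505) and rho was 0.95 (exact permutation p = 0.00114), and over the 6 libraries from 1000 pg r was 0.87. For Lipt1, which acts in the attachment of lipoate to mitochondrial enzymes, r was 0.98 (exact permutation p = 4.96e-05, adjusted 0.319), rho was 0.99 (exact permutation p = 9.92e-05), and r was 0.84 over the 6. For Chrna10, a nicotinic receptor subunit gene, r was 0.95 (exact permutation p = 0.00689, adjusted 0.678), rho was 0.71 (exact permutation p = 0.0595), and r was 0.49 over the 6. All 10 were at their lowest in the 200 pg libraries, as Lars2 was. Lipt1 and Chrna10 had a log2 CPM of -3.77 in both of these libraries, the lowest value the scale can take. Elsewhere they lay at only 0.28 to 2.67.

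The 10 genes with the highest r with the summed mt- share were Ndufb7, Tgs1, Pram1, Gm14410, Gm29216, Brd3, Prss36, Wdr83os, Isca2 and Creb5. Gm29216 is a nuclear copy of mt-Co1 that can take its reads, described below, and is not a separate measurement. Ndufb7 is a nuclear subunit gene of complex I. Its log2 CPM was 8.83, 8.61, 8.52 and 8.72 in scopolamine 1 to 4 and 9.12, 8.56, 8.82 and 9.04 in sham 1 to 4, which gave r = 0.99 (exact permutation p = 7.44e-05, adjusted 0.318) and rho = 0.98 (exact permutation p = 3.97e-04). Without scopolamine 3 and sham 1, the 2 libraries farthest from the median of the log2 share, r was 0.98. In percent, sham 4 lay farther from the median than scopolamine 3. Isca2, which acts in mitochondrial iron-sulfur cluster assembly, had r = 0.94 (exact permutation p = 7.44e-04, adjusted 0.570), rho = 0.98 (exact permutation p = 3.97e-04) and r = 0.94 without scopolamine 3 and sham 1. Lars2 itself had r = -0.50 with the summed share over 8 libraries (exact permutation p = 0.213, adjusted 0.923), rho = -0.12 (exact permutation p = 0.793), r = 0.46 over the 6 from 1000 pg, and r = 0.09 without scopolamine 3 and sham 1.

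Several mt- genes have near-identical copies in the nuclear genome that the table lists as genes of their own. kallisto assigns reads by words of 31 bases, and a copy with the same words can take reads of the mt- gene. Gm28438, on chromosome 1, is identical to mt-Nd3 over bases 4 to 345 of the 348 bases of mt-Nd3. It held 11736, 9495, 3093 and 7140 counts in scopolamine 1 to 4 and 15573, 15250, 18555 and 22494 in sham 1 to 4, which is 451% to 539% of the counts of mt-Nd3 itself. Gm29216 is identical to mt-Co1 over 483 bases but for A1066T, counted from the first base of mt-Co1 with the base of mt-Co1 first. With Gm13340, a second copy with few counts, it held 47.7%, 38.2%, 23.0% and 30.5% of the counts of mt-Co1 in scopolamine 1 to 4 and 47.9%, 41.4%, 40.5% and 52.1% in sham 1 to 4. Gm10925 matches mt-Atp6 over 678 of 681 bases without a difference, and held 27.3% of the counts of mt-Atp6 in scopolamine 1 and 58.7% in scopolamine 2. The values of mt-Nd3, mt-Co1 and mt-Atp6 are uncertain to this extent.

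The starts of these 3 nuclear genes and the matching stretches of the mt- genes show how little there is to tell the members of a pair apart. The coordinates are of GRCm38: chrM:9459-9518 for mt-Nd3 and chr1:24613060-24613119 on the minus strand for Gm28438, chrM:6381-6440 for mt-Co1 and chr1:24616138-24616197 on the minus strand for Gm29216, chrM:7927-7986 for mt-Atp6 and chr1:24614592-24614651 on the minus strand for Gm10925. Each stretch lies in an exon of its gene, and capitals mark bases that differ within a pair, of which there are 1, 6 and 0.
mt-Nd3: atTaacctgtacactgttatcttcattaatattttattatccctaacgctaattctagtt
Gm28438: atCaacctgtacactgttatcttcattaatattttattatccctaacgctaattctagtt
mt-Co1: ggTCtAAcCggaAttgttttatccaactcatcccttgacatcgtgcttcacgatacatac
Gm29216: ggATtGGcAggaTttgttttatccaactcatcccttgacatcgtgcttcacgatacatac
mt-Atp6: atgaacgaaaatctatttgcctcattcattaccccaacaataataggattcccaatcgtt
Gm10925: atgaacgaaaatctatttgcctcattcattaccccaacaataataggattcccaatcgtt

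With the counts of every copy that shares at least 100 words summed into its mt- gene, a step added after the data were seen, the log2 fold changes were -0.38 for mt-Nd3 (standard error 0.28), -0.22 for mt-Co1 (standard error 0.18) and -0.36 for mt-Atp6 (standard error 0.19). All 13 stayed under 0, and 4 were again at an unadjusted p under 0.05. Gm28437, identical to mt-Co3 over 783 bases, held at most 1.36% of the counts of mt-Co3. Gm28661, Gm28439 and Gm10222, identical to stretches of mt-Co2, mt-Nd4 and mt-Nd4l, held 0 counts in every library. Gm13340, Gm13341, Gm13339, Gm11407 and Gm4076, which differ from mt-Co1, mt-Co2, mt-Nd2 and mt-Nd5 at 16 to 78 bases, held 175 counts or fewer in any library.

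Lars2 lies on chromosome 9 (GRCm38, chr9:123366927-123462666, plus strand), and its main annotated transcript has 3894 bases in 21 exons, with the 3′ UTR from base 2906. Of the 11160 words of 31 bases in its transcripts, 103 occurred in another gene, and at most 25 in any 1 gene that the table lists. It shared 0 words with the mt- genes or the mitochondrial ribosomal RNAs. The genes with 25 words were 2410004P03Rik, at 10 to 84 counts per library, and Cd38, at 1223 to 3450. Over 72 bases of the 3′ UTR, from base 3278 to base 3349, Lars2 matched Gm15564 with the single difference A3330T (positions on this transcript, base of Lars2 first). Gm15564 is not among the genes listed and was not analysed here. Words were searched in annotated transcripts only. Whether all counts of Lars2 come from its own mRNA was not tested.

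No other nuclear gene of mitochondrial gene expression was called. Of all genes tested, 50.9% had a log2 fold change under 0, and 3.33% were higher and 2.66% lower at an unadjusted p under 0.05, which the counts below are to be read beside. Of 22 genes for mitochondrial tRNA loading and conversion, Lars2 among them, 17 had a log2 fold change above 0 and 5 below, with a median of 0.37 beside -0.01 over all genes tested, and 2 were at an unadjusted p under 0.05, both higher. Of 18 cytosolic tRNA synthetase genes tested, 12 were above 0 and 6 below, with a median of 0.22 and none at an unadjusted p under 0.05. The glycine and lysine synthetases Gars and Kars, used in both compartments, averaged 75.5 ± 11.6 and 67.7 ± 5.07 CPM under scopolamine and 60.9 ± 15.8 and 63.7 ± 10.2 CPM under sham (SD, n = 4 each).

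Beside the same shares over all genes tested (50.9% under 0, 2.66% lower and 3.33% higher at an unadjusted p under 0.05), the other lists were as follows. Of 17 tested genes that maintain and transcribe mitochondrial DNA, 7 were above 0 and 10 below, with a median of -0.04 and 1 at an unadjusted p under 0.05, lower. The mitochondrial RNA polymerase gene Polrmt had a log2 fold change of 0.76 (standard error 0.49, edgeR adjusted p = 0.843). Of 29 genes that process or stabilise mitochondrial RNA, 13 were above 0 and 16 below, with a median of -0.11, and 1 was at an unadjusted p under 0.05, lower. Of 13 genes for mitochondrial translation factors and other proteins linked to this translation, among them the ion exchanger Letm1 and the membrane insertase Oxa1l, 9 were above 0 and 4 below, with a median of 0.13. The elongation factor gene Tufm averaged 152 ± 53.0 CPM under scopolamine and 119 ± 16.5 CPM under sham (SD, n = 4 each).

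Markers of other cell types of the gut were also present. The 10 enterocyte markers summed to 3188, 6339, 6039 and 3181 CPM in scopolamine 1 to 4 and to 6303, 2581, 2598 and 2544 CPM in sham 1 to 4, with Fabp1 the most abundant. Sham 1 was thus high among the sham libraries both in these markers and in the mt- share, while sham 3 was not high in enterocyte markers. Sham 4, with the lowest sum of these markers, had an mt- share of 6.88%, and sham 2 had 5.11%. Scopolamine 2 and scopolamine 3 had higher sums than scopolamine 1 and scopolamine 4 but lower mt- shares, at 5.04% and 4.64%. All 10 had a log2 fold change above 0, with a median of 1.64 beside -0.01 over all genes tested, and 4 were higher at an unadjusted p under 0.05, where 3.33% of all genes tested were.

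The 10 goblet and Paneth cell markers summed to 3567, 2155, 694 and 1735 CPM in scopolamine 1 to 4 and to 1399, 354, 1199 and 346 CPM in sham 1 to 4, led by Tff3, with 10 of 10 above 0, a median log2 fold change of 1.499, and 2 higher at an unadjusted p under 0.05, where 3.33% of all genes tested were higher, 2.66% lower and 50.9% under 0. Sham 1 and sham 3, the 200 pg libraries, were above the other 2 sham libraries. The 10 enteroendocrine markers, led by Sct, summed to 477 CPM, 838 CPM, 393 CPM and 1100.5 CPM in scopolamine 1 to 4 and to 271 CPM, 178 CPM, 1071 CPM and 267 CPM in sham 1 to 4. Sham 3 alone was high within sham, and of 9 markers tested 8 had a log2 fold change above 0, with a median of 1.40 (1 below 0 and none at an unadjusted p under 0.05). The 6 stem and cycling markers, led by Ascl2, summed to 185 ± 49.6 and 174 ± 39.98 CPM under scopolamine and sham (SD, n = 4 each), with 3 of the 6 above 0 and 3 below, and 2 higher at an unadjusted p under 0.05, beside the same 3.33% over all genes. The 8 lymphocyte markers, led by Ptprc, summed to 120 CPM, 199 CPM, 159 CPM and 53.3 CPM in scopolamine 1 to 4 and to 254 CPM, 55.6 CPM, 79.2 CPM and 66.7 CPM in sham 1 to 4, with sham 1 the highest of all libraries. Erythrocyte markers summed to at most 3.74 CPM and stromal markers to at most 10.8 CPM in any library, and no listed marker was at 0 in all libraries. The 10 tuft markers summed to 15682 ± 4063 CPM under scopolamine and 16742 ± 1337 CPM under sham (SD, n = 4 each). The part of these cells in the levels of Lars2 and the mt- genes was not tested.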

How the data were processed

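Libraries of total RNA from sorted cells were amplified with the Clontech Ultra Low v4 kit and prepared with Nextera XT; all RNA had a quality number of at least 9. The authors demultiplexed reads with bcl2fastq 2.20, assigned them to transcripts of GRCm38 with kallisto 0.44.0, summed them per gene with tximport, and deposited estimated counts without normalization. The listed counts are whole numbers.

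Treatment came from the sample labels, and RNA input and cycles from the study's description of the libraries; each library is 1 mouse. A check for the same library listed 2 times within a group, which reckons with counting error only and says nothing on how alike the mice are, found none (smallest chi-square per degree of freedom 72.7).

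The groups were compared over 12849 genes with edgeR 4.0.16 in R 4.3.3 (TMM, filterByExpr, quasi-likelihood test; a gene was called at a Benjamini-Hochberg adjusted p under 0.1), and DESeq2 1.42.0 was an alternative. Shares and correlations (log2 CPM, prior count 2) were tested by exact permutation, two-sided. No test was made of the summed mt- share. Transcripts and coordinates came from GENCODE M21. Fits and correlations were tested on simulated data, where the edgeR fit missed part of the changed genes and called some unchanged ones. The other alternatives were DESeq2's size factors, library size only, scaling without the 14 genes, other filters, leaving out the 200 pg libraries or each replicate, and a covariate for cycles or for mouse ID series.

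Genes named are the 14, the 10 most correlated with Lars2 and with the mt- share, listed genes sharing words with them, up to 4 of highest mean CPM per list, and Dclk1, Trpm5 and Pou2f3. Members and lists were chosen with earlier results of these data known.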

Additional observations from a re-analysis of the deposited data

Results flagged for a closer look

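Of the 32 sets of 4 libraries examined for a library far from the other 3 (the shares of the 14 genes, the summed mt- share and the ratio of short to long mt- genes, in each group), 1 held such a library, and chance gives about 1 in 20. The share of mt-Nd5, a complex I subunit, was 0.177% of all counts in scopolamine 1 and 0.149% to 0.154% in scopolamine 2 to 4. The gap was 0.832 of the range of the group, above the limit that Dixon's test sets for 4 samples. The cause was not tested.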

How the results depend on the processing

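The log2 fold change of Lars2 stayed above 0 and was not called under any of 18 alternatives, from 0.10 (without the 200 pg libraries) to 1.05 (mouse ID series), with adjusted p from 0.528 to 0.999. The share of Lars2 passed the exact permutation test at p = 0.05 in 1 setting, without sham 4, the only sham library inside the scopolamine range. Leaving out each replicate gave differences of 2.27 to 4.12 percentage points. The difference in the summed mt- share ranged from -1.52 to -0.702 percentage points without each replicate. Genes past an adjusted p of 0.1 went from 0 to 190 with DESeq2, 9 without the 200 pg libraries and 5 with cycles as a covariate, and ranged from 0 to 2 without each replicate. The mt- genes at an unadjusted p under 0.05 went from 4 to 0 without the 200 pg libraries and 0 with cycles, and ranged from 1 to 9 without each replicate. For the 4 genes the log2 fold changes without the 200 pg libraries were -0.78 to -0.29, with larger standard errors. Of 234 alternative values of the 13 mt- log2 fold changes, 1 changed sign: mt-Co1, at 0.016 with cycles. The mt- genes with r under 0 with Lars2 went from 13 to 2 in the 6 libraries from 1000 pg and equally without the 2 farthest libraries, 7 with group means subtracted and 8 by Spearman's rho, and ranged from 7 to 13 without each replicate. In the 6 libraries, and equally without the 2 farthest, r turned to 0.47 for mt-Cytb and 0.95 for mt-Co1. For mt-Co1 it was 0.10 by rho, and for mt-Atp8 0.15 with group means subtracted and 0.024 by rho. Without single replicates, r for mt-Atp8 ranged from -0.29 to 0.086, for mt-Co1 from -0.39 to 0.31 and for mt-Cytb from -0.86 to -0.28. The causes were not tested. No scaling in edgeR moved the median of all genes by over 0.1. No paired analysis was possible because the replicate numbers only name the samples. RNA input is low in sham libraries only, sham libraries are deeper, and 3 of 4 scopolamine libraries and 1 of 4 sham libraries share a mouse ID series, so treatment, input, depth and series cannot be told apart in full.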

Other observations

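Gm20594, a gene on chromosome 6 that shares 42 words of 31 bases with the mitochondrial ribosomal RNA gene mt-Rnr2 (90.4% identity over 426 bases), held 0.189%, 0.157%, 0.146% and 0.160% of all counts in scopolamine 1 to 4 and 0.194%, 0.132%, 0.158% and 0.184% in sham 1 to 4. Its lowest share was in sham 2 and its highest in sham 1, and the groups overlapped (log2 fold change -0.06, standard error 0.16, edgeR adjusted p = 0.977). It was named after its values were seen.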
